A study of Mus musculus with 12 samples.

Results

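Cells take up fluid, receptors and particles through several membrane routes, and the genes described here encode the machinery of those routes in mouse bone marrow-derived macrophages. They are 36 genes named by symbol, found in a count table of 55401 gene IDs through a reference table of gene names, and all 36 were present once. By role they comprise 12 genes of clathrin coats and their adaptors, 4 of membrane scission, 4 of caveolae, 2 flotillins, 9 genes with a part in macropinocytosis, and 5 of early endosomes and recycling. RNA was sequenced from macrophages grown out of the bone marrow of old mice (12 months) and of young mice (8 weeks), with 6 libraries in each group. All mice had a C57BL6 background, and all cultures received 20 ng/mL macrophage colony-stimulating factor and were used on day 7. No library was labelled as exposed to nanoparticles. They are labelled as biological replicates, but not as separate animals, and a p-value here weighs the age difference only against how far these 12 libraries vary, which may be in part technical.

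In clathrin-mediated endocytosis, the adaptor complex AP2 binds cargo and phosphoinositides at the plasma membrane and recruits clathrin triskelia, made of heavy and light chains, and dynamin cuts the finished bud from the membrane. Caveolae are small pits built from caveolins and cavins, and flotillins mark other membrane microdomains. Macropinocytosis closes actin-driven ruffles, under Rac and Cdc42, around drops of fluid. Macrophages are known for constitutive macropinocytosis, which macrophage colony-stimulating factor stimulates, and vesicles from these routes fuse with early endosomes that carry RAB5.

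Counts assigned to genes numbered 19345587 to 22356812 in old libraries and 22150081 to 25169045 in young libraries. Levels are given as CPM (the counts-per-million scale, computed here with normalisation factors) for a gene across libraries, and as CPM per kilobase of exon to compare genes with each other. Macrophage markers were expressed in every library, at levels that differed between genes. Csf1r, the receptor of the growth factor, was at 3538 to 5197 CPM in old and 2524 to 5371 CPM in young libraries. Adgre1, which encodes F4/80, was at 923 to 1398 CPM in old and 745 to 1371 CPM in young libraries. Lyz2 was at 24808 to 33452 CPM in old and 20504 to 34972 CPM in young libraries. Itgam was lower, at 132 to 159 CPM in old and 159 to 190 CPM in young libraries, so that its ranges barely met. Some libraries stood apart. The summed level of 34 cell cycle genes was 2825 CPM in old replicate 2 and 1925 CPM in old replicate 3, against 4540.4 CPM in young replicate 6, and 827 to 1526 CPM in the other 9 libraries. Old replicate 6 had 20.7 CPM summed over 8 lymphoid markers, against at most 0.514 CPM in any other library, and 443 CPM over 8 osteoclast markers, against 149 to 232 CPM in the other old and 155 to 214 CPM in young libraries. In bulk RNA, fewer cells of a type and less RNA per cell cannot be told apart.

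None of the genes passed the test between old and young macrophages. Of the 36, 33 had enough counts to be tested with edgeR's quasi-likelihood test, and 0 of these were called at an adjusted p below 0.05 (also 0 by DESeq2 and by limma voom), where 0.0158% of all 12620 genes tested were called. At an unadjusted p below 0.05 there were 2 of 33, or 6.06%, beside 5.47% of all genes. Both, Snx9 and Rab5b, were higher in old libraries, the direction of 3.23% of all genes, and 0 were lower, the direction of 2.24% of all genes. For 0 of 33 genes did the ranges of the old and young libraries fail to overlap, beside 0.206% of all genes. The median log2 fold change, old over young, was -0.04 over the 33 genes and -0.01 over all genes tested, and 16 of the 33 values were positive. Single values ran between -0.22 for Cltb and 0.46 for Rab5a.

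The absence of calls came with narrow intervals for most of these genes. The 95% interval of the log2 fold change lay within 0.5 of 0 in both directions for 26 of 33 genes, beside 7921 of all 12620 genes tested. It lay within 1 of 0 for 32, beside 11241 of all genes tested, the exception being Cav1, at -0.73 to 1.05. The biological coefficient of variation had a median of 13.1% over the 33 genes, with a lowest value of 8.47% for Ap2b1 and a highest of 44.9% for Cav1, beside a median of 16.9% over all genes tested.

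**Figure D1:**
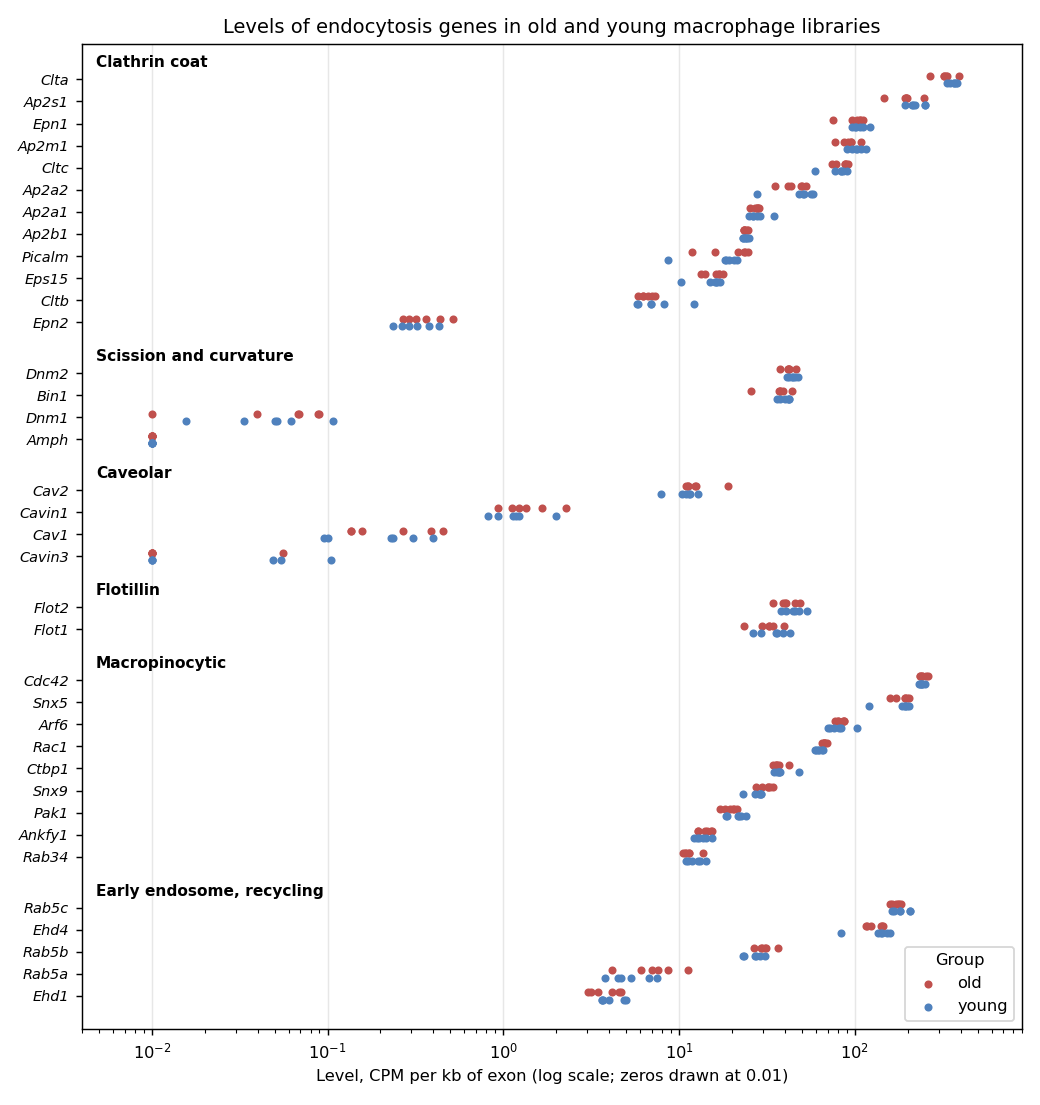
Level of each endocytic gene in every library, in CPM per kilobase of exon on a log axis, with genes grouped by route, old points drawn above young points and zeros drawn at 0.01. The clathrin light chain Clta is at the top, and Cav1, Epn2, Dnm1 and Cavin3 lie lowest among the genes with counts, while the old and young points of each gene overlap.

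Per kilobase, the routes differed widely in level. Summed over its genes, the clathrin route stood at 941 ± 88.0 CPM per kb in old and 1017 ± 50.0 CPM per kb in young libraries (SD, n = 6 each). The macropinocytic genes summed to 694 ± 27.9 CPM per kb in old and 679 ± 24.5 CPM per kb in young libraries, and the early endosome and recycling genes to 345 ± 18.1 and 356 ± 26.8 CPM per kb in old and young libraries. The scission genes were at 78.9 ± 8.59 CPM per kb in old and 84.2 ± 4.49 CPM per kb in young libraries. The flotillins reached 73.6 ± 10.1 CPM per kb in old and 80.0 ± 7.29 CPM per kb in young libraries, and the caveolar genes 14.6 ± 3.21 CPM per kb in old and 12.3 ± 2.03 CPM per kb in young libraries. The sums depend on how many genes stand for each route, so they describe these genes and not the traffic through a route, and the most abundant genes weigh most in them. They use the full exon length, so genes that share exon with a neighbour, such as Rac1 and Arf6 of the macropinocytic route (below), read lower in them. Taken as the mean log2 CPM of the tested genes, each gene weighing the same, the difference between old and young was 0.08 for the early endosome and recycling genes, positive where their sum was lower in old libraries. It was -0.03 for the clathrin, -0.10 for the scission, 0.21 for the caveolar, -0.12 for the flotillin and 0.02 for the macropinocytic genes.

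Among single genes over all 12 libraries, Clta had the highest level, 346 CPM per kb, and its lowest library, at 269 CPM per kb, lay above every library of the next gene, Cdc42 (242 CPM per kb). Ap2s1 (209.9 CPM per kb), Snx5 (184 CPM per kb) and Rab5c (178 CPM per kb) followed, and these neighbours overlapped in their library ranges. Next in level were Ehd4 at 133 CPM per kb, Epn1 at 103 CPM per kb, Ap2m1 at 97.6 CPM per kb, Cltc at 82.3 CPM per kb and Arf6 at 82.1 CPM per kb. Rac1 came after these at 64.8 CPM per kb, but 51.4% of its exon length is shared with the neighbouring gene Daglb, where reads are given to neither gene under the command in the file headers. Over its unshared exon bases Rac1 was at 133 CPM per kb. Likewise Arf6, with 14.3% of its exon length shared with Gm9887, was at 95.8 CPM per kb over its unshared bases, above Cltc. At the low end, Ehd1 (3.99 CPM per kb), Cavin1 (1.32 CPM per kb) and Epn2 (0.343 CPM per kb) did not overlap with each other, whereas Epn2 and Cav1 (0.242 CPM per kb) did.

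The clathrin coat was represented mainly by its heavy chain and the A light chain. Clta, which encodes clathrin light chain A, had 484, 590.4 and 702 CPM as the lowest, median and highest of the old libraries, against 600.5, 662 and 691 CPM in the young libraries. The old libraries spread over the whole young range and beyond it on both sides, and 1 of 6 old libraries was above the young median. Its log2 fold change was -0.14 with a standard error of 0.08 (adjusted p = 0.77, edgeR), the lowest p of the clathrin route. Cltc, the heavy chain that forms the legs of the triskelion, had 628, 746 and 777 CPM in old against 503, 710.0 and 766 CPM in young libraries. Its lowest value belonged to young replicate 6, and the groups overlapped (log2 fold change 0.09, standard error 0.10, and 0.01 without that library). Light chain B, from Cltb, was at 28.6, 31.4 and 35.4 CPM in old and 28.1, 33.6 and 58.9 CPM in young libraries, the highest being young replicate 6. Per kilobase and over all libraries, Clta was 48.7 times the level of Cltb. Without young replicate 6, the log2 fold change of Cltb was -0.04 in place of -0.22.

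AP2 has an alpha subunit from either Ap2a1 or Ap2a2, and beta, mu and sigma subunits from Ap2b1, Ap2m1 and Ap2s1. The sigma subunit gene Ap2s1 was at 216, 288 and 364 CPM in old libraries and 284, 321 and 370.0 CPM in young libraries, with old replicate 6 lowest of all 12. Its log2 fold change was -0.19 with a standard error of 0.11 (adjusted p = 0.77, edgeR), and it was -0.12 without old replicate 6. The mu subunit gene Ap2m1, which reads tyrosine-based sorting signals, gave 319 to 447 CPM in old and 372 to 479.6 CPM in young libraries, with a log2 fold change of -0.15 (standard error 0.08). The beta subunit gene Ap2b1 varied least of all 33 genes: 205 to 217 CPM in old and 201 to 219 CPM in young libraries, with a log2 fold change of 0.00 and an interval from -0.10 to 0.10. Of the alpha subunits, Ap2a2 had 200.0, 262 and 299.8 CPM in old and 158, 289.6 and 326 CPM in young libraries. Young replicate 6 alone lay below every other library for Ap2a2, and without it the log2 fold change was -0.22 rather than -0.10. Ap2a1 had 109 to 122 CPM in old and 108 to 149 CPM in young libraries, and 16.7% of its exon length is shared with Fuz.

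The accessory proteins of the clathrin route showed the same overlap of groups. Picalm, which encodes a clathrin assembly protein that controls the size of the coat, ran over 187, 354 and 390.1 CPM in old and 136, 296 and 339 CPM in young libraries. Its lowest libraries were old replicate 2 and young replicate 6, both high in cell cycle genes. The log2 fold change was 0.19 (standard error 0.22), and the part of the cell cycle genes in it was not tested. With young replicate 6, old replicate 2 and old replicate 3 left out, the value was 0.25, and with young replicate 6 alone left out it was 0.05. Epn1, an epsin that bends membrane and binds ubiquitinated cargo, had 210.4, 294 and 313 CPM in old and 272, 293 and 341 CPM in young libraries. Its lowest library was old replicate 6, and the log2 fold change was -0.09 (standard error 0.09) and -0.02 without that library. Eps15, a scaffold of the coat's rim, had 92.8, 115 and 123 CPM in old and 70.7, 112 and 118 CPM in young libraries, again lowest in young replicate 6. The paralog Epn2 was near the limit of the test at 1.40 to 2.71 CPM in old and 1.23 to 2.26 CPM in young libraries.

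Scission rested on the ubiquitous dynamin. Dnm2, the GTPase that severs the neck of the bud in most cell types, had 201, 224 and 245 CPM in old and 219.7, 236 and 254 CPM in young libraries. The ranges overlapped over most of their length, and the log2 fold change was -0.07 with a standard error of 0.06 (adjusted p = 0.79, edgeR). Bin1, an amphiphysin with a membrane-curving BAR domain, had 106, 155 and 181 CPM in old and 149, 168 and 173 CPM in young libraries. Old replicate 6 gave its lowest value, apart from all others, and without that library the log2 fold change was -0.03 rather than -0.12. The neuronal dynamin Dnm1 had 40 counts over all old and 39 over all young libraries, with 0 in 1 library, and was not tested. Amph, the neuronal amphiphysin, had 0 counts in all 12 libraries, where a limit of 3 counts allows at most 0.155 CPM in the shallowest. These limits cover counting error only and take each count as independent. They are too low where both mates of a fragment were counted (below).

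Caveolar genes were low, and they were the route with the widest intervals. Cav2, an accessory caveolin, had 36.4, 39.3 and 63.3 CPM in old libraries and 26.3, 37.4 and 42.5 CPM in young libraries. A single library, old replicate 6, stood above the rest, and the other 5 old libraries lay at 36.4 to 41.8 CPM, inside the young range. The log2 fold change was 0.25 with a standard error of 0.14 (adjusted p = 0.77, edgeR), and without old replicate 6 it was 0.11. Cav1, the caveolin that forms the coat of the pit, had 0.467, 0.736 and 1.55 CPM in old and 0.331, 0.799 and 1.37 CPM in young libraries. Replicate 6 was highest in both groups, the groups overlapped throughout, and without old replicate 6 the log2 fold change of 0.16 turned to -0.07. Old replicates 1 and 4 shared the lowest old count of 10, and young replicates 1 and 5 the lowest young count of 8. Cavin1, the cavin that coats the pit from the cytosol, had 3.34, 4.61 and 8.19 CPM in old and 2.94, 4.14 and 7.20 CPM in young libraries (log2 fold change 0.23, standard error 0.25). Without old replicate 2, where it was highest, that value was 0.05, and without young replicate 6 it was 0.43. Cavin3 had 2 counts over all old and 8 over all young libraries, 0 in 8 of the 12, and was not tested.

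Fibroblasts and endothelial cells are rich in caveolae, so their markers are given beside these values. Over 12 stromal markers the summed level was 1.59 to 20.0 CPM in old and 1.94 to 2.76 CPM in young libraries, and Col3a1 and Lum were at 0 in all 12. The highest of these, old replicate 6, held 17.7 CPM of Thy1, which T cells also express, and 1.59 to 3.79 CPM in all was found in the other old libraries. Over 8 endothelial markers the sum was 271 to 318 CPM in old and 259 to 319 CPM in young libraries, of which Vwf gave 235 to 294 CPM in old and 223 to 292 CPM in young libraries, and Kdr 19.7 to 48.6 CPM in old and 23.0 to 49.8 CPM in young libraries. Cdh5 was at most 0.187 CPM in old and 0.629 CPM in young libraries and Emcn was at 0 in all 12. Whether cells other than macrophages gave part of the caveolar counts was not tested.

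Cav2 and Cav1 are neighbours in the same orientation on chromosome 6 of GRCm38, Cav2 at chr6:17281185-17289115 and Cav1 at chr6:17306335-17341452, with 17219 bases between them. Over all libraries Cav2 was 48.9 times the level of Cav1 per kilobase. Since these neighbours differ so much in level, the 250 bases before the first listed start of each are shown from RefSeq (GRCm38.p6, plus strand), with each CG dinucleotide in capitals. The Cav2 window is chr6:17280935-17281184 and the Cav1 window chr6:17306085-17306334.
Cav2: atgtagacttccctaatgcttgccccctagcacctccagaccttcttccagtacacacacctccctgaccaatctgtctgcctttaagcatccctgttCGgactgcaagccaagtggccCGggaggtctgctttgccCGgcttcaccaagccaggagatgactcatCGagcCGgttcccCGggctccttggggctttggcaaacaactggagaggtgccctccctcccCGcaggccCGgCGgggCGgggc
Cav1: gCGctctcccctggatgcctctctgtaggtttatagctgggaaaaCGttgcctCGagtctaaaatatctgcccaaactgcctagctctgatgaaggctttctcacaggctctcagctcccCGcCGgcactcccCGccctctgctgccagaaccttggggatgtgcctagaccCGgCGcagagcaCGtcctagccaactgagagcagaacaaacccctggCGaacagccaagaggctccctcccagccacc
Each window held 10 CG dinucleotides, with a GC content of 62% for Cav2 and 59.6% for Cav1, and neither held the letters GAGGAAG (a core read by PU.1, searched on both strands). For Cav1 the table lists 2 starts, and the first is shown. Over the windows of all 32851 promoters in the table, the median was 6 CG dinucleotides and 10.6% held GAGGAAG. Over the 29 windows found for the endocytic genes, the median was 18 and 10.3% held GAGGAAG.

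Both flotillin genes were expressed, Flot2 at 43.4 and Flot1 at 33.5 CPM per kb over all libraries. Flot2 had 94.4, 110.5 and 134 CPM in old libraries and 105, 124 and 146 CPM in young libraries, and Flot1 had 68.1, 94.6 and 114 CPM in old against 76.6, 104 and 124 CPM in young libraries. Old replicate 6 was lowest and old replicate 2 highest of the old libraries for both genes, while in young libraries replicate 6 was highest for Flot2 and lowest for Flot1. The log2 fold changes were both -0.12, with standard errors of 0.13 for Flot1 and 0.10 for Flot2 (adjusted p = 0.83 and 0.78, edgeR). Without old replicate 6 they were -0.04 and -0.07.

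**Figure D2:**
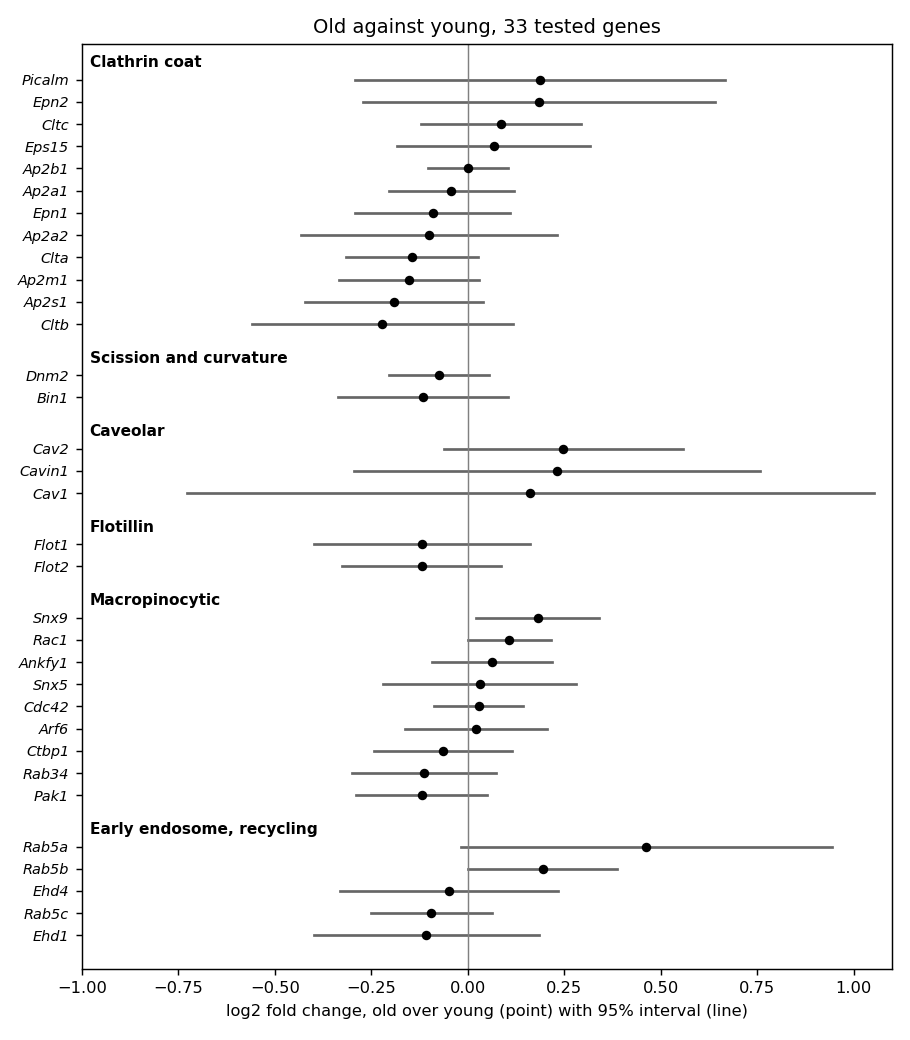
Log2 fold change of the 33 tested genes, old over young, with 95% intervals from edgeR, grouped by route; the vertical line at 0 marks no difference. All intervals but those of Snx9 and Rab5b reach 0, no adjusted p is below 0.05, and Cav1 has the widest interval.

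The macropinocytic genes included the small GTPases that drive ruffles. Cdc42 was at 697, 714 and 775 CPM in old and 691, 708 and 749 CPM in young libraries, with full overlap and a log2 fold change of 0.03 (standard error 0.05). Rac1, at 143503634 to 143528036 on the minus strand of chromosome 5, had 295, 301 and 311 CPM in old and 265, 279 and 295 CPM in young libraries. All 6 old libraries were above the young median, and the groups met at 295 CPM, where the lowest old library, replicate 2, and the highest young library, replicate 4, lay close together. The log2 fold change was 0.11 with a standard error of 0.05 (unadjusted p = 0.052, adjusted p = 0.77, edgeR). Arf6, which recycles membrane to ruffles, was at 119 to 133 CPM in old and 109 to 159 CPM in young libraries. The kinase gene Pak1, an effector of Rac1 and Cdc42, was at 67.7 to 84.3 CPM in old and 72.8 to 95.3 CPM in young libraries, with 0 of 6 old libraries above the young median and a log2 fold change of -0.12 (standard error 0.08, adjusted p = 0.77, edgeR).

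Snx9, a sorting nexin that binds dynamin and actin regulators at closing cups, had the lowest p of all 33 genes. Its level was 99.3, 116 and 124 CPM in old libraries and 83.4, 104 and 107 CPM in young libraries. Old libraries were above the young median in 5 of 6 cases, the exception being old replicate 2, and young replicate 6 lay below all others. The log2 fold change was 0.18 with a standard error of 0.07 and an interval from 0.02 to 0.34 (unadjusted p = 0.029, adjusted p = 0.77, edgeR). It was 0.13 without young replicate 6 and 0.11 without both young replicate 6 and old replicate 6. Snx5, a sorting nexin found on macropinosomes, had 662, 808 and 845 CPM in old and 501, 807 and 851 CPM in young libraries. The medians nearly coincided, young replicate 6 stood far below the rest, and the log2 fold change of 0.03 became -0.06 without it.

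The remaining macropinocytic genes were Ctbp1, Ankfy1 and Rab34. Ctbp1, which encodes a protein with a known part in sealing the macropinocytic cup, had 153, 160.3 and 189 CPM in old and 156, 166 and 215 CPM in young libraries, with young replicate 6 far above the other young libraries. Rab34, a small GTPase of macropinosomes and secretory membranes, had 25.2, 26.6 and 32.7 CPM in old and 26.2, 29.5 and 34.1 CPM in young libraries. Old replicate 2 was its highest old library, apart from the others, and the log2 fold change was -0.11 (standard error 0.09). Ankfy1, an effector of RAB5 known as rabankyrin-5, was at 144 to 175 CPM in old and 138 to 174 CPM in young libraries.

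RAB5 is the GTPase that gives early endosomes their identity, and its 3 genes were expressed at very unequal levels. Rab5c (chr11:100715009-100738215) was at 172 CPM per kb in old and 184 CPM per kb in young libraries, Rab5b (chr10:128677175-128696264) at 30.7 and 26.8 CPM per kb in old and young libraries, and Rab5a (chr17:53479234-53507680) at 7.46 and 5.42 CPM per kb in old and young libraries. As a share of the summed level per kb, Rab5c took 81.8 ± 2.84% in old and 84.9 ± 2.92% in young libraries, Rab5b 14.6 ± 1.79% in old and 12.5 ± 2.25% in young libraries, and Rab5a 3.55 ± 1.15% in old and 2.54 ± 0.774% in young libraries (SD, n = 6 each). To set the promoters of the paralogs side by side, the 250 bases before the first listed start are shown in the gene's own 5′ to 3′ direction from RefSeq (GRCm38.p6), again with each CG dinucleotide in capitals: Rab5a at chr17:53478984-53479233 (plus), Rab5b at chr10:128696269-128696518 (minus) and Rab5c at chr11:100738216-100738465 (minus).
Rab5a: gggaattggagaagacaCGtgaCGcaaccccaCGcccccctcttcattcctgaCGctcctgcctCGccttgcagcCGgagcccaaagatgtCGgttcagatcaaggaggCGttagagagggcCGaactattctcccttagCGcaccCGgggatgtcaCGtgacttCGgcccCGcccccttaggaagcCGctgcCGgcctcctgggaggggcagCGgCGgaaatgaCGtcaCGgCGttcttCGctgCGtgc
Rab5b: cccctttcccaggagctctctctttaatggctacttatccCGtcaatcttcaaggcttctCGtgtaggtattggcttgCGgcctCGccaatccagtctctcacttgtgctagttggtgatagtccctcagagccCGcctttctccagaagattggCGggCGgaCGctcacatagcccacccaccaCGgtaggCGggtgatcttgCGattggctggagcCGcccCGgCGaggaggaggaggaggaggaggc
Rab5c: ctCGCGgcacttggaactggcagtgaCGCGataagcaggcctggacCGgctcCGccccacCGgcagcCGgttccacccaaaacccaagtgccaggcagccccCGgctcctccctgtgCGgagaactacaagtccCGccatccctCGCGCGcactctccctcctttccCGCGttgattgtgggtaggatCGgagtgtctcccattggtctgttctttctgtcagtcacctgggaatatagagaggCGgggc
The least expressed paralog, Rab5a, had 23 CG dinucleotides in its window, against 14 for Rab5b and 18 for Rab5c. Of the 3, the Rab5a window alone held the palindrome CACGTG, an E-box, which stood in 6.02% of all windows in the table and in 6 of the 29 windows found for the endocytic genes, or 20.7%. The 2 shares are not like for like, since CACGTG itself holds a CG and the 29 windows had a median of 18 CG dinucleotides, against 6 over all windows. A match of letters is a description of the window and not of binding.

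Across libraries, Rab5a varied widely. It had 21.8, 38.5 and 59.2 CPM in old libraries and 20.1, 26.3 and 39.5 CPM in young libraries, the highest library of all 12 having 2.95 times the lowest, beside 1.09 times for Ap2b1. Old libraries were above the young median in 5 of 6 cases, with old replicate 2 below it and old replicate 6 highest. The log2 fold change was 0.46 with a standard error of 0.22 and an interval from -0.02 to 0.94 (unadjusted p = 0.058, adjusted p = 0.77, edgeR). Leaving out old replicate 6 gave 0.31, and leaving out young replicate 6 as well gave 0.26. Rab5b had 113, 127 and 154 CPM in old and 96.7, 115 and 130.4 CPM in young libraries, with 5 of 6 old libraries above the young median. Its log2 fold change was 0.19 with a standard error of 0.09 (unadjusted p = 0.048, adjusted p = 0.77, edgeR), and 0.10 without both libraries numbered 6. Rab5c had 349.9, 383 and 400.5 CPM in old and 358, 396 and 454 CPM in young libraries, with a log2 fold change of -0.09 (standard error 0.07). Old replicate 6 was highest for both Rab5a and Rab5b and lowest of the old libraries for Rab5c. It was also the library with the high lymphoid marker sum and the high osteoclast marker sum, mostly Atp6v0d2, given above. The part of these in the differences was not tested.

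The EHD proteins tubulate recycling endosomes. Ehd4 had 463, 528 and 583 CPM in old libraries and 334, 568 and 634 CPM in young libraries, with young replicate 6 alone far below the rest. Its log2 fold change was -0.05 (standard error 0.13) with all libraries and -0.16 without young replicate 6. Ehd1 was at 11.2 to 17.3 CPM in old and 13.5 to 18.6 CPM in young libraries.

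Because a ratio of 2 genes within a library needs no scaling between libraries, paralogs and partners were also compared as ratios of their levels per kb, with a two-sided exact permutation test over all assignments of the 12 libraries to groups of 6, which can give no p below 0.0022. Of 12 ratios listed, 10 were tested, and 0 passed at an adjusted p below 0.05 or at an unadjusted p below 0.05. The ratio of Rab5a to Rab5c, on the log2 scale, was -5.46, -4.59 and -3.83 as the lowest, median and highest old library and -5.76, -5.12 and -4.44 in young libraries. It differed by 0.53, with an interval from -0.14 to 1.17, and 5 of 6 old libraries were above the young median (exact permutation p = 0.10, adjusted p = 0.40). The ratio of Rab5b to Rab5c differed by 0.29, with an interval from -0.07 to 0.63 (exact permutation p = 0.12, adjusted p = 0.40). For Rac1 to Cdc42 the difference was 0.08, with an interval from -0.01 to 0.17 and 5 of 6 old libraries above the young median (exact permutation p = 0.069, adjusted p = 0.40).

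**Figure D3:**
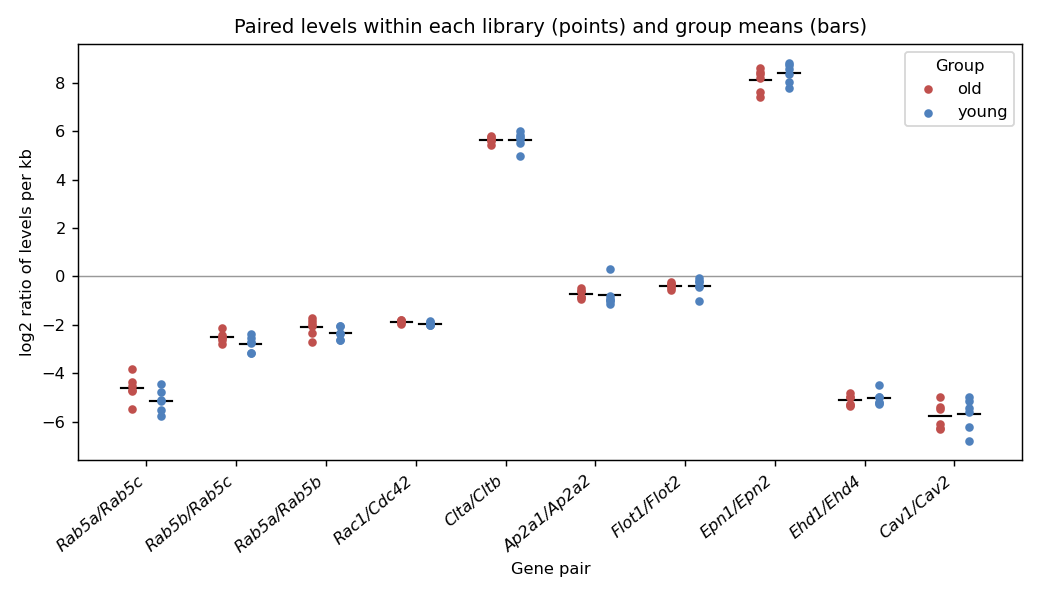
Log2 ratio of the levels per kilobase of paralogs and partners in each library, old beside young, with the group means. The old and young points overlap in every ratio, and the Rab5a to Rab5c ratio lies between -5.46 and -3.83 in old and between -5.76 and -4.44 in young libraries.

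The ratio of Rab5a to Rab5b differed by 0.24, with an interval from -0.18 to 0.65 and 5 of 6 old libraries above the young median (exact permutation p = 0.21, adjusted p = 0.54). For the other ratios the interval included 0 as well. The light chains, Clta over Cltb, differed by 0.02 with an interval from -0.28 to 0.36, the alpha adaptins, Ap2a1 over Ap2a2, by 0.04 with an interval from -0.48 to 0.43, and the flotillins, Flot1 over Flot2, by 0.00 with an interval from -0.27 to 0.33. Old libraries were above the young median in 6 of 6 cases for Ap2a1 over Ap2a2, where young replicate 6 was the highest of the young libraries, and in 1 of 6 for Flot1 over Flot2, where young replicate 6 was the lowest. Epn1 over Epn2 differed by -0.28 with an interval from -0.87 to 0.32 and 1 of 6 old libraries above the young median, Ehd1 over Ehd4 by -0.09 with an interval from -0.41 to 0.24, and Cav1 over Cav2 by -0.06 with an interval from -0.87 to 0.73. Dnm1 over Dnm2 and Bin1 over Amph were not tested, since Dnm1 and Amph had too few counts.

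The spread within each group was concentrated in a few libraries. Young replicate 6 was the highest young library for 13 of the 33 genes and the lowest for 12, old replicate 2 the highest old library for 15 and the lowest for 10, and old replicate 6 the highest for 9 and the lowest for 13. From the other 5 libraries of the group, the 33 genes had a median absolute log2 deviation of 0.23 in old replicate 2. It was 0.26 in young replicate 6 and 0.05 to 0.14 in all other libraries, with old replicate 6 at 0.14. Old replicate 2 and young replicate 6, both high in cell cycle genes, were both lowest of their group for 8 genes, Cltc, Picalm, Eps15, Rac1, Ankfy1, Snx5, Snx9 and Rab5b. They were both highest of their group for 9 genes, Clta, Cltb, Ap2a1, Ap2s1, Cavin1, Flot2, Pak1, Ctbp1 and Rab34. Old replicate 3, the other library high in cell cycle genes, was highest for 0 and lowest for 3 genes, Arf6, Cdc42 and Ehd1, none of them among these. Old replicate 2 and young replicate 6 also had the lowest sums of 8 macrophage markers in their groups, 32368 CPM and 26998 CPM. The highest sums were 43492 CPM in old and 44716 CPM in young libraries. Lyz2 gave 24808 CPM and 20504 CPM of the lowest sums in old replicate 2 and young replicate 6. Csf1r and Adgre1 were lowest of their group there too, whereas Itgam was not, and in old replicate 2 it was the highest of the old libraries. The part of cell cycle genes or of macrophage markers in these deviations was not tested.

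**Figure D4:**
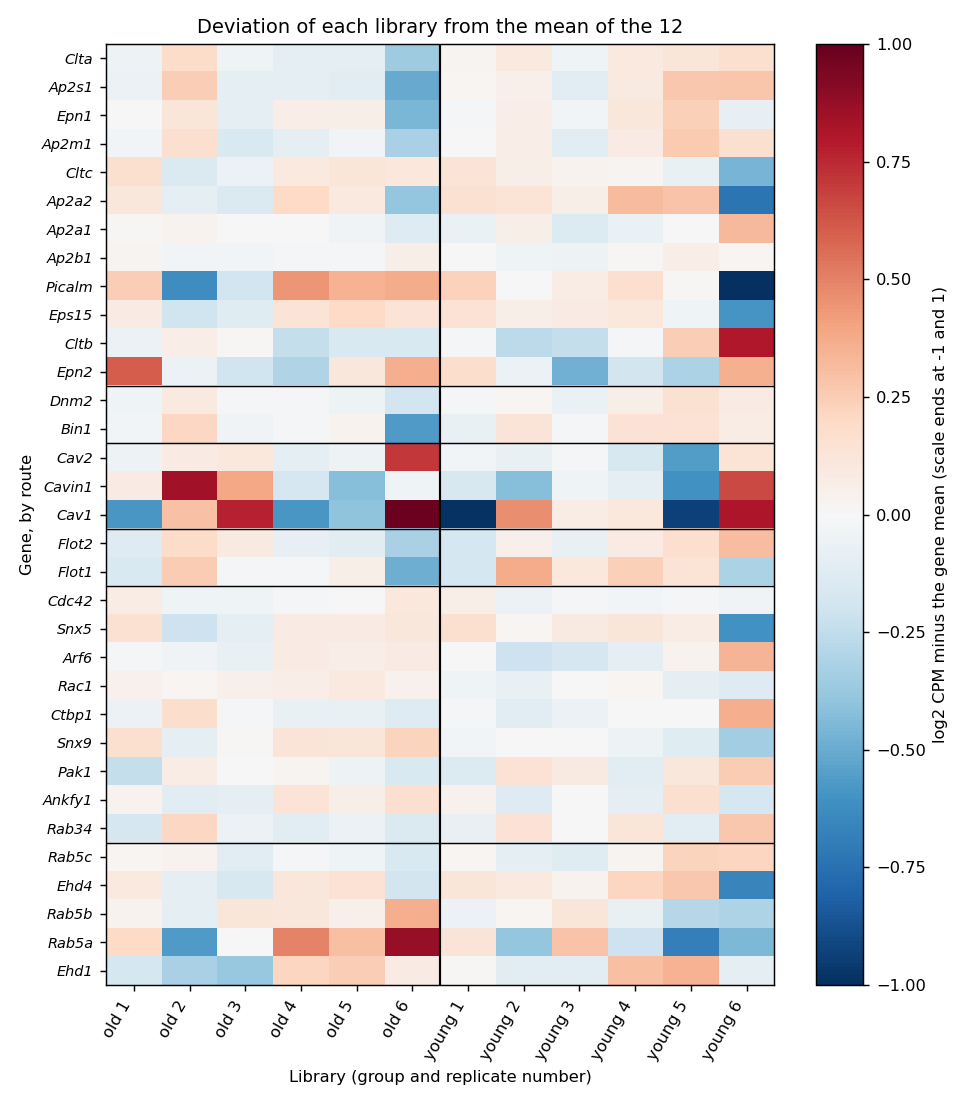
Deviation of each of the 33 genes (rows, by route) in each library (columns, old left of young) from the gene's mean over the 12 libraries, as a log2 difference in colour on a scale that ends at -1 and 1. The strongest colours belong to Picalm in young replicate 6 (-1.08), to Cav1 in several libraries and to Rab5a in old replicate 6 (0.87), and Picalm is also low in old replicate 2 (-0.62).

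Other genes of the same pathways were counted from lists of 135 symbols, of which 134 matched and 118 were tested. Again 0 were called at an adjusted p below 0.05 by edgeR, and at an unadjusted p below 0.05 there were 3 higher and 3 lower in old libraries. The median log2 fold change was 0.04, and 78 of 118 values were positive. By list, the median was 0.02 for 25 tested clathrin accessory genes, 0.06 for 47 genes of macropinocytosis and actin, 0.05 for 36 early endosome genes, 0.01 for 8 genes of clathrin-independent carriers and 0.03 for 2 further caveolar genes, Pacsin2 and Pacsin3. The most abundant gene per kb of each list was Arpc2, a subunit of the actin-branching Arp2/3 complex, with 642 ± 34.3 CPM in old and 606 ± 36.5 CPM in young libraries, Rab7, the late endosome GTPase, with 405 ± 28.4 CPM in old and 399 ± 22.2 CPM in young libraries, Arf1 with 378 ± 9.57 CPM in old and 385 ± 19.8 CPM in young libraries, the beta-arrestin gene Arrb2 with 331 ± 34.7 CPM in old and 362 ± 34.3 CPM in young libraries, and Pacsin2 with 112 ± 7.70 CPM in old and 113 ± 7.98 CPM in young libraries (SD, n = 6 each).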

How the data were processed

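The authors deposited whole, unnormalised counts per gene, made with featureCounts 1.6.0 on Ensembl release 100 of GRCm38, per the file headers; the command sets no option for strand, read pairs or multiply aligned reads. STAR and FastQC are named in the submitters' processing notes. The TruSeq v2 kit of the labels' protocols does not keep strand, so overlapping genes cannot be told apart. It is not stated in the sources used here if each mate of a pair added a count. The counts of Cav1 and Epn2 were even in every library, the pattern left when both mates of a fragment are counted. Low counts given here may therefore stand for fewer fragments than their number. Column sums equalled the assigned totals, and 0 sample columns were left unused. Symbols were found for 55141 of 55401 IDs.

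Counts of all 12 libraries were tested here with edgeR 4.0.16 in R 4.3.3 (quasi-likelihood F test, robust fitting, TMM factors, edgeR's low-count filter, group alone). P-values were adjusted by Benjamini-Hochberg over 12620 genes with a threshold of 0.05. The scripts were tested on simulated data, with 50 genes changed at each size. There the edgeR test called 0% of 1.2-fold, 50% of 1.5-fold and 96% of 2-fold changes, so small changes could be missed. The simulation gave 133 calls, against 2 in the real data, which loosens the adjusted threshold. It also drew libraries without deviations shared among genes, so recovery in the real data could be lower. CPM used TMM factors, and CPM per kb the exon length of the deposited table. Ratios took a pseudocount of 0.5 count and exact permutation with SciPy 1.17.1. Alternatives were RLE factors, no factors, other count filters, DESeq2 1.42.0, limma 3.58.1 voom, no robust fitting, a replicate block and left-out libraries.

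The genes and lists were chosen with earlier results of these data known. Library values were given for the 2 highest genes per kb and the lowest p of each route, and for genes with an outlying library. Those of Rab5a, Rac1, Cav1 and Cltb were added after their values were seen. Protein sequences were not used here.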

Additional observations from a re-analysis of the deposited data

Results flagged for a closer look

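With 33 genes and 2 age groups, 66 groups of 6 libraries were examined on the log2 CPM scale for a highest or lowest library standing apart. The rule was a gap to the nearest other library, divided by the group's range, above 0.625 (Dixon, in log2 CPM, while the values below are in CPM). There were 12 such groups, and chance flags about 1 in 20. Young replicate 6 was the low library for Cltc at 503 CPM (the other young libraries at 659 to 766), Ap2a2 at 158 CPM (272 to 326), Picalm at 136 CPM (287 to 339) and Eps15 at 70.7 CPM (104 to 118). It was also low for Snx5 at 501 CPM (772 to 851), Snx9 at 83.4 CPM (97.9 to 107) and Ehd4 at 334 CPM (540.3 to 634), and high for Ctbp1 at 215 CPM (156 to 169). Old replicate 6 was low for Epn1 at 210.4 CPM (the other old libraries at 272 to 313) and Bin1 at 106 CPM (153 to 181), and high for Cav2 at 63.3 CPM (36.4 to 41.8). Old replicate 2 was high for Rab34 at 32.7 CPM (25.2 to 27.2). The flags of one library are not independent of each other, since its genes were measured together.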

How the results depend on the processing

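In all 22 alternatives 0 of the endocytic genes were called. The lowest adjusted p any of them reached was 0.16 (Picalm, without young replicate 6 and old replicates 2 and 3), where 10 of them and 18.1% of all genes were at an unadjusted p below 0.05. Over all genes, 2 were called, against 4 with no low-count filter, 15 with DESeq2, 4 with the replicate block, and 1 to 5 with a library left out (5 without young replicate 3, 1 without young replicate 4). Replicate numbers were not taken as pairs, since the labels give no shared source. Between same-numbered libraries the correlations of deviations were -0.17 to 0.39, and 4 of 12 libraries correlated best with their own number. These values do not settle whether same-numbered libraries share a source. The replicate block gave 1 endocytic gene (Cav2) at an unadjusted p below 0.05, beside 4.62% of all genes. That count was 0 without any one of old replicates 1, 4, 5 or 6 or young replicate 5, beside 2.47% to 4.03% of all genes. It was 1 gene without old replicate 3, beside 4.59% of all genes. With old replicate 2 left out it was 6 genes, 3 higher and 3 lower in old, beside 12.7% of all genes. With young replicate 3 left out it was 4 genes, all higher, beside 7.79% of all genes. The differences of the routes in mean log2 CPM kept their signs in the alternatives run on them. The log2 fold changes of 24 of 33 genes kept their sign in every alternative. The others, with a library left out, ranged over -0.0714 to 0.0258 (Ap2a1), -0.00925 to 0.0143 (Ap2b1), 0.0469 to 0.302 (Picalm), -0.0245 to 0.112 (Eps15), -0.0656 to 0.401 (Cav1), -0.0161 to 0.103 (Arf6), -0.106 to 0.0115 (Ctbp1), -0.0633 to 0.0745 (Snx5) and -0.172 to -0.0438 (Ehd1). Ap2b1 was at -0.00316 with no filter. Without young replicate 6 and old replicates 2 and 3, Ap2a1 was at 0.00541 and Ehd1 at 4.9e-04. Without both libraries numbered 6, a choice added after seeing the data, values were 0.0476 (Ap2a1), -0.0055 (Ap2b1), -0.00227 (Picalm), -0.0424 (Eps15), 0.0306 (Ctbp1) and -0.0813 (Snx5). Ratio differences with a library left out ranged over -0.102 to 0.0984 (Clta/Cltb), -0.0339 to 0.254 (Ap2a1/Ap2a2), -0.122 to 0.0666 (Flot1/Flot2), -0.151 to 0.0164 (Ehd1/Ehd4) and -0.278 to 0.0878 (Cav1/Cav2). Without young replicate 6 and old replicates 2 and 3 they were -0.111 (Clta/Cltb), -0.112 (Flot1/Flot2) and 0.109 (Ehd1/Ehd4), and without both libraries numbered 6 they were -0.0594 (Clta/Cltb), -0.0886 (Flot1/Flot2) and 0.0121 (Cav1/Cav2). The cause was not tested. For Dnm1, Cavin3 and Amph no difference was detectable at this depth.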
